A study of Mus musculus with 8 samples.

Results

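stress_Micro is a cluster of microglia named by the authors in their joint clustering of single leukocytes from mouse brain, pia and dura. Its members were taken as the cells that carry this name in the deposited annotation, and it held 727 of the 32457 annotated cells, which fell into 21 clusters. The cells came from 8 single-cell RNA-seq libraries of CD45iv-CD45+ leukocytes, that is, leukocytes that a CD45 antibody injected into the blood had not reached before the sort. There was 1 library each of control brain parenchyma, control pia, control dura, pia and dura at 24 h after transient middle cerebral artery occlusion (MCAO, a filament model of ischaemic stroke) and brain at 72 h, and 2 libraries of brain at 24 h. All animals were C57BL/6 mice. The methods name adult males. The study's reporting summary gives a total for each compartment over pooled replicate experiments, which is not broken down by library. Control animals are described as naive in the methods and as sham-operated in a legend, and they are called control here. The cluster name was set by hand from marker genes. stress_Micro was compared with the other microglia clusters (Micro_1, Micro_2 and Micro_3) of the same library.

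Microglia are the resident macrophages of the brain parenchyma. They arise from the yolk sac, depend on signalling through Csf1r, and survey the tissue with receptors such as Cx3cr1, for the neuronal chemokine fractalkine, and P2ry12, for extracellular nucleotides. After ischaemia they lower part of this homeostatic programme and can raise chemokines, interferon response genes and genes of lipid handling.

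Few cells of the cluster were found in 6 of the 8 libraries. stress_Micro held 479 of 3468 annotated cells in brain 24 h replicate 2, a share of 13.8% (exact Clopper-Pearson 95% interval 12.7 to 15.01%). Brain 72 h had 213 of 6049 cells, or 3.52% (3.07 to 4.02%). Control brain had 14 of 4297 (0.326%, 0.178 to 0.546%) and brain 24 h replicate 1 had 11 of 4582 (0.240%, 0.120 to 0.429%). Each pia library had 2 such cells, control dura had 1 and dura at 24 h had 5. These intervals, and those given later, cover counting error only. The 2 libraries of brain at 24 h were therefore far apart, with a mean share of 7.03% ± 9.60 (SD, n = 2), and 95.2% of all members (692 cells) lay in 2 libraries. Among the 4 microglia clusters alone, stress_Micro made up 24.0% in brain 24 h replicate 2 and 20.7% in brain 72 h, against 0.375% in control brain and 0.367% in brain 24 h replicate 1. With no more than 1 library of any other brain condition, no test of time or of MCAO on these shares was made.

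**Figure D1:**
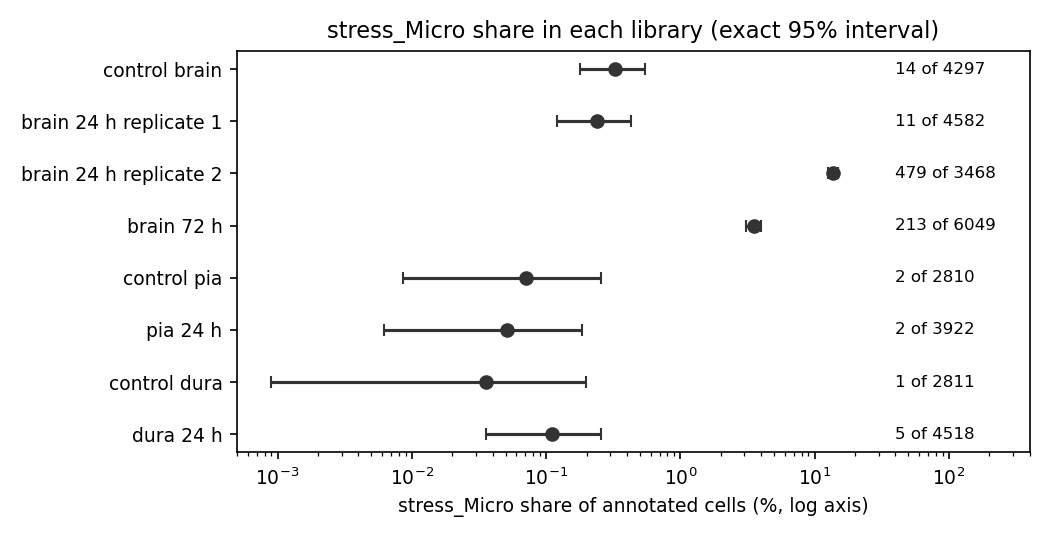
Share of annotated cells in stress_Micro (percent, log axis) in each of the 8 libraries, with exact 95% binomial intervals as bars. Brain 24 h replicate 2 (13.8%) and brain 72 h (3.52%) lie above the other brain libraries (0.326% and 0.240%).

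Brain 24 h replicate 2 and brain 72 h also stood apart from the other 6 libraries in features that do not follow the groups. Their count matrices list 31053 genes and the others 32285, with 30406 in common. Their barcodes include 4 and 9 that start with AAACCC and none with AAACCT, and the reverse holds in the other 6. The methods name library kits of different versions, and the kit versions in the sample labels do not follow this split. Annotated cells reached a mitochondrial share of UMIs (unique molecular identifiers, the counted transcripts) of 14.9% and 13.9%, against 3.98% in control brain, 3.88% in brain 24 h replicate 1 and 6.93% to 9.99% in the pia and dura libraries. Of the members, 200 of 479 and 105 of 213 had a share above 4%, a level that no annotated cell of those other brain libraries reached. The authors removed cells at a mitochondrial limit set for each sample. These maxima and counts cannot be told apart from that filter. Among annotated cells at or under 4% the cluster still held 11.3% and 1.95%, and among those with at least 1000 UMIs 7.04% and 0.706%. The difference in stress_Micro share and these differences between libraries cannot be told apart here. The 2 libraries shared 13 barcodes, none of them a stress_Micro cell in both.

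Total UMIs were 10053557 in brain 24 h replicate 2, 20754181 in brain 72 h, 7920673 in control brain and 10002179 in brain 24 h replicate 1, within 6591898 to 20754181 over all libraries. The median stress_Micro cell had 819 UMIs and 525 genes in brain 24 h replicate 2, where the other microglia had 884 UMIs and 563 genes. At 72 h the median member had 657 UMIs and 414 genes, against 1595 UMIs and 873.5 genes. Members were thus about as deep as their neighbours in the first library and shallower in the second. Summed over cells, the members gave 439449 and 178589 UMIs and the other microglia 1882684 and 1469374. Levels below are UMIs per 1000000 UMIs of such sums (CPM), and differences are log2 ratios of stress_Micro over the other microglia with 0.5 UMIs added to each sum.

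The microglia label held in both libraries with many members. All 26 genes of a microglia identity list were counted in stress_Micro, and their summed level was 46001 CPM in brain 24 h replicate 2 and 54332 CPM at 72 h. The lymphoid clusters (T, B, NK, gamma-delta T and innate lymphoid cells) of the same libraries, which should lack these genes, had 3630 and 4942 CPM. Micro_1, Micro_2 and Micro_3 had 68502, 57309 and 55048 CPM in the first library and 81846, 70990 and 68322 CPM in the second, so stress_Micro was the lowest of the 4 in both. Cx3cr1 stood at 2301 CPM against 3014 (log2 ratio -0.39) and at 1775 against 2317 (-0.38). Tmem119, a membrane protein used as a microglia marker, stood at 951 against 1112 CPM (-0.22) and at 672 against 874 CPM (-0.37). Cst3, the protease inhibitor cystatin C and the most abundant gene of the list, was at 7639 against 12465 CPM and 13467 against 17985 CPM.

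Shares of cells with a UMI gave the same order. A Cx3cr1 UMI was found in 74.1% and 63.4% of members, in 86.4% and 87.2% of the other microglia and in 22.7% and 13.6% of lymphoid cells (median depth 1879 and 1184.5 UMIs). With every cell thinned to 500 UMIs, which left out 0 cells of these classes, these were 61.0% and 54.0%, 69.8% and 64.6%, and 6.64% and 6.87%. Tmem119 was seen in 49.9% and 38.5% of members, 62.5% and 66.2% of other microglia and 8.47% and 3.88% of lymphoid cells. Thinned, it was seen in 33.8% and 25.8%, 43.4% and 34.0%, and 1.60% and 1.64%. The members of the other brain libraries had UMIs of both markers: the 14 cells of control brain had Cx3cr1 at 1847 CPM and Tmem119 at 3477 CPM, and the 11 cells of brain 24 h replicate 1 had 2109 and 703 CPM. The other microglia of these libraries had 1997 and 3886 CPM, and 1905 and 3381 CPM, so Tmem119 was lower in the members of brain 24 h replicate 1, where it rests on 6 UMIs. The 10 cells from pia and dura had 0 UMIs of either gene, in sums of only 528 to 11614 UMIs per library. Their identity list summed to 31617 CPM in control pia, 10673 CPM in pia at 24 h, 9469.7 CPM in control dura and 4822 CPM in dura at 24 h. The other microglia of these libraries had 89617, 56041, 42255 and 36927 CPM and the lymphoid cells 4420.2, 3003, 2716 and 2569 CPM. The members lay between them, nearer the lymphoid cells than the other microglia in each library. In dura at 24 h the label was not borne out, and the other 3 libraries had 1218 UMIs or fewer to judge from.

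Because the clusters were made from these same counts, differences between stress_Micro and its neighbours are given as descriptions without p-values. Genes needed at least 50 UMIs over stress_Micro and the other microglia together, and a gene past 2-fold was counted as higher or lower. Of 6141 genes in brain 24 h replicate 2, 81 were higher (1.32%) and 122 lower (1.99%). At 72 h, 159 of 4546 were higher (3.50%) and 210 lower (4.62%). Most of these genes had few UMIs in the members, and the counting interval of the ratio lay wholly past 2-fold for 27 and 1 genes in the first library and for 24 and 7 in the second. In both libraries, 15 of 4442 genes were higher (0.338%) and 11 were lower (0.248%). Of the 15, 9 had under 50 UMIs in the other microglia of at least 1 library and reached the minimum there through stress_Micro. The higher genes made up 15 of the 25 called in brain 24 h replicate 2 that could be compared, and 10.1% of the 148 at 72 h. The lower ones made up 14.5% of 76 and 5.79% of 190. All 15 lay above each of Micro_1, Micro_2 and Micro_3 in both libraries, and 10 of the 11 lay below each, all but Cxcl10, although Nfkbid in brain 24 h replicate 2 was level with Micro_1 (18.2 CPM each). The median log2 ratio over all genes was -0.02 and 0.00, which the scaling of both classes to equal sums holds near 0.

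**Figure D2:**
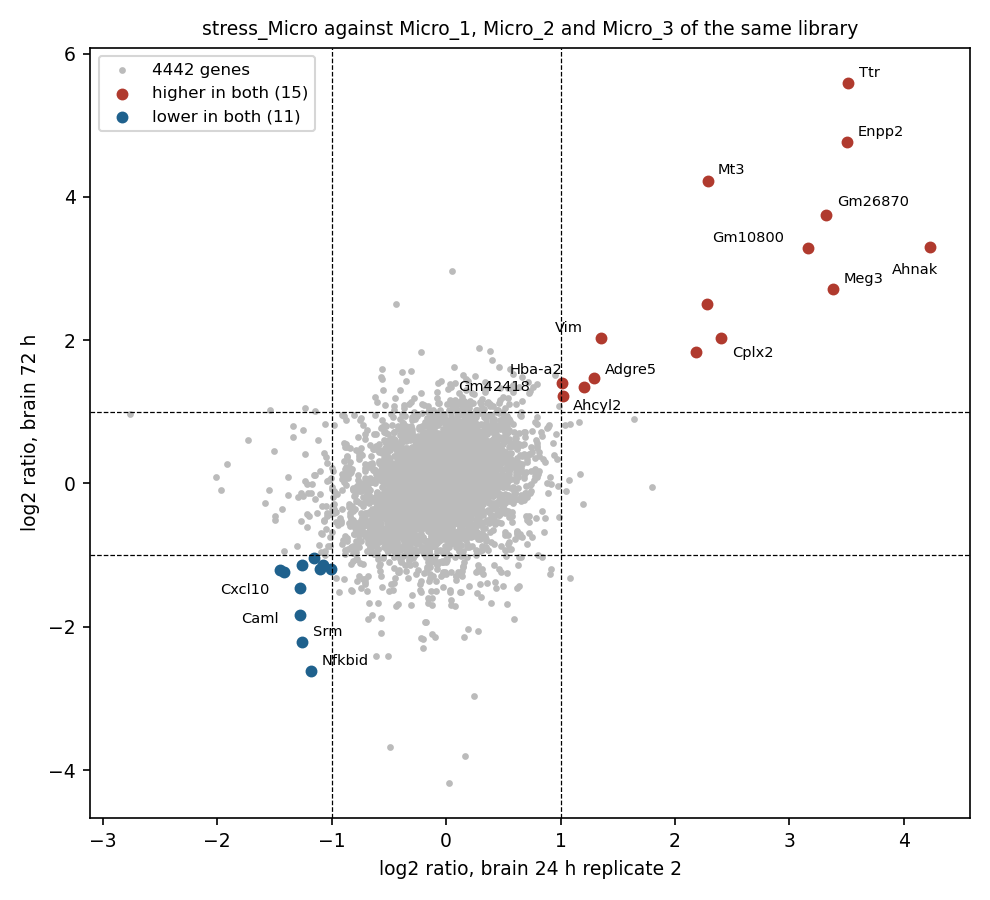
Log2 ratio of stress_Micro over the other microglia in brain 24 h replicate 2 (x axis) and brain 72 h (y axis) for 4442 genes, with dashed lines at 2-fold. The 15 genes higher in both libraries (red, most of them named) run from near the 2-fold lines, with Gm42418, Ahcyl2, Hba-a2 and Adgre5, out to Ttr, and the 11 lower in both (blue, of which 4 are named) reach furthest with Nfkbid at 72 h.

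A gene that set most stress_Micro cells apart was Gm26870 (ENSMUSG00000097312), a predicted long intergenic non-coding RNA on the minus strand at chr9:3000282-3038313 (GRCm38, GENCODE M21), next to the start of the assembled chromosome. Its 3 annotated transcripts, of 1170, 1143 and 1170 bases, are tandem repeats: shifted by 234 bases against itself, each matched at 81.5%, 95.9% and 78.3% of positions. The mouse major satellite, the tandem repeat of pericentromeric heterochromatin, has a unit of this length, and its transcripts are known from dividing cells and tumours. Gm10800 (ENSMUSG00000075014), annotated as protein coding with 5 exons on the minus strand at chr2:98666547-98667301, is a predicted gene that matches the repeat. Of the 20-base runs of its transcript, 46.2% occur in Gm26870 on the opposite strand and 0% on the same strand. The sequences are shown as annotated for these genes, although the annotation release that the UMIs were counted against was not established. They were read from GRCm38 with GENCODE M21, 5′ to 3′ on the minus strand, and capitals mark bases within a run of at least 20 whose reverse complement occurs in a transcript of the other gene. Both Gm26870 stretches are neighbouring repeat units in exons of 1 transcript, at chr9:3038077-3038310 and chr9:3037843-3038076, and the Gm10800 stretch is exonic, at chr2:98666741-98667040.
Gm26870 unit 1: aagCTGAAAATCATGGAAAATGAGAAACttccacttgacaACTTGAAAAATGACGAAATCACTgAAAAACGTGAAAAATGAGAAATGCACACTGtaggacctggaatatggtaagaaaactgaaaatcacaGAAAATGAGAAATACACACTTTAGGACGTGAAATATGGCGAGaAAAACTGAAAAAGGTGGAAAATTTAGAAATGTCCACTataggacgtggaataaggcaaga
Gm26870 unit 2: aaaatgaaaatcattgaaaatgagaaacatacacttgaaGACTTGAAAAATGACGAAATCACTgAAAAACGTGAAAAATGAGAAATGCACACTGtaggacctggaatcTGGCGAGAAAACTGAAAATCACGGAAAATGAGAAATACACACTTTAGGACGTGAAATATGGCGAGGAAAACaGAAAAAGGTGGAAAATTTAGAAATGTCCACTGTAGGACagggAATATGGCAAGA
Gm10800 exon: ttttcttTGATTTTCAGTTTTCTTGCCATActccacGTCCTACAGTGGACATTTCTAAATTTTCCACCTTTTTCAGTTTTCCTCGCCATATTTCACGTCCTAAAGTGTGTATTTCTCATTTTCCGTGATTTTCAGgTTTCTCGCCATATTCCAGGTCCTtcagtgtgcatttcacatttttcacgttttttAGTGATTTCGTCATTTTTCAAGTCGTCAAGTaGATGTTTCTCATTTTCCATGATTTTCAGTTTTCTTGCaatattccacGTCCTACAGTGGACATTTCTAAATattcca

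The units match at 217 of 234 positions (92.7%), and 157 and 175 of their bases are in capitals. Among the transcripts of 55450 genes, no gene other than Gm26870 itself shares a 20-base run with it on the same strand, and 12 do on the opposite strand, 9 of them on chromosome 9. Copies of the repeat outside these gene models were not searched for, and how reads that match several copies were assigned was not tested.

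Gm26870 was the second most counted gene of stress_Micro by UMIs in both libraries, and ranked 37 and 87 among the other microglia. Its level was 27846 CPM in brain 24 h replicate 2, where Micro_1, Micro_2 and Micro_3 had 3758, 2616 and 2234 CPM. At 72 h it was 21015 CPM, against 1956, 1716 and 1144 CPM. The log2 ratio to the other microglia together was 3.32 (95% counting interval 3.28 to 3.37) and 3.75 (3.67 to 3.83), about 10-fold and 13-fold. Levels were 3102 and 3131 CPM in lymphoid cells, and 5955 and 3772 CPM in stress_Myeloid, the authors' other cluster named for stress. stress_Micro had the highest level of the 17 clusters with at least 20 cells in the first library and of the 19 in the second.

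The excess was spread over the whole cluster. Every member had at least 1 Gm26870 UMI, with a median of 20 and a maximum of 147 in brain 24 h replicate 2 and a median of 16 and a maximum of 64 at 72 h. As a share of a cell's UMIs, the median was 2.19% (25th to 75th percentile 1.49 to 3.54%) against 0.261% in the other microglia, and 2.27% (1.37 to 3.09%) against 0.123%. A share of at least 1% was reached by 448 of 479 members (93.5%, 90.9 to 95.6%) but by 75 of 1519 other microglia (4.94%) and 47 of 437 lymphoid cells (10.8%). At 72 h the counts were 184 of 213 (86.4%, 81.0 to 90.7%), 30 of 814 (3.69%) and 72 of 670 (10.7%). Some cells outside the cluster thus had the same share, and 13 of 45 stress_Myeloid cells (28.9%) did in brain 24 h replicate 2. A bare UMI of Gm26870 was common in every class, in 86.2% and 75.4% of other microglia and 84.9% and 77.6% of lymphoid cells. Thinned to 500 UMIs these fell to 70.5% and 52.0%, and 56.8% and 59.0%, against 99.6% and 100% of members.

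**Figure D3:**
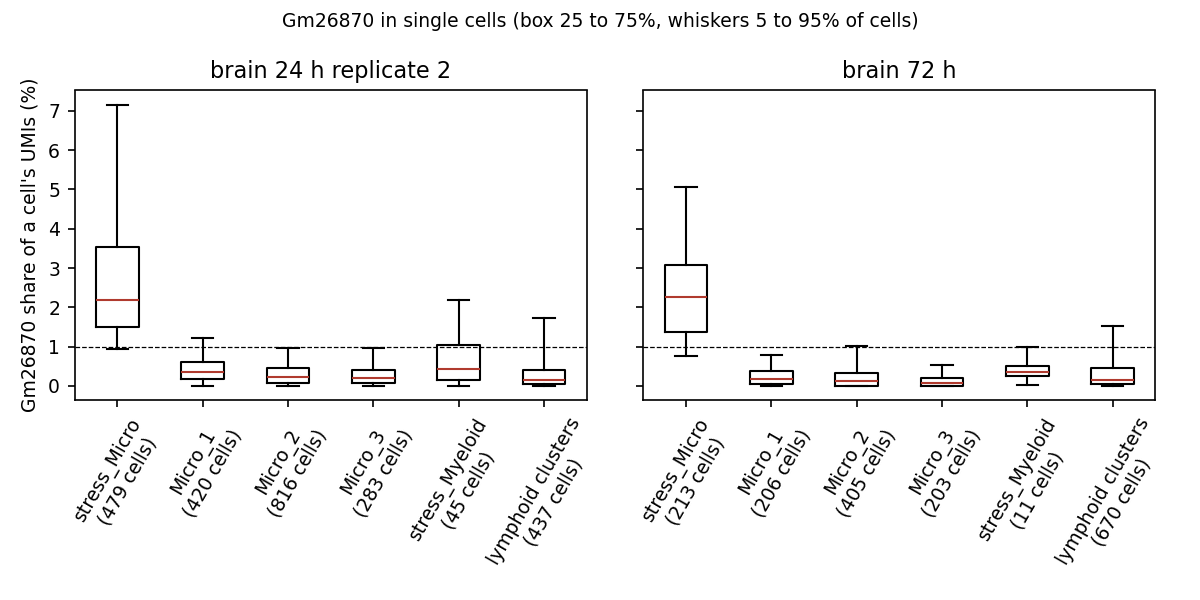
Gm26870 as a percentage of each cell's UMIs in the microglia, stress_Myeloid and lymphoid classes of brain 24 h replicate 2 and brain 72 h, with boxes from the 25th to the 75th percentile, a line at the median, whiskers from the 5th to the 95th percentile and a dashed line at 1%. The stress_Micro medians are 2.19% and 2.27%, and at least 75% of its cells lie above the dashed line in both libraries.

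Gm10800 was counted at lower levels and was also higher in stress_Micro. It had 958 CPM against 107 (log2 ratio 3.16, 2.92 to 3.42) and 694 CPM against 71.5 (3.28, 2.89 to 3.67). It was seen in 53.2% and 41.3% of members, 11.7% and 11.3% of other microglia and 15.3% and 15.1% of lymphoid cells. Thinned, the shares were 40.7% and 31.0%, 5.66% and 5.28%, and 8.01% and 7.91%. Gm10801, another of the 12 genes that match the repeat on the opposite strand, had 157 against 21.2 CPM and 101 against 10.9 CPM. Genes on both orientations of the repeat were thus counted at higher levels in stress_Micro. The UMIs of Gm26870 per UMI of Gm10800 were 29.1 and 30.3 in members, 26.0 and 21.9 in other microglia and 29.3 and 22.8 in lymphoid cells. Gm26870 and Gm10800 were the genes higher in both libraries under all 12 settings tried, as given in the closing section.

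Of these genes, Gm26870 could not be followed into the other 6 libraries, because it is not in their gene list. Gm10800 is in it. The 35 members there had 0 UMIs of it among 32205, which allows up to 93.2 CPM. That is below the 958 and 694 CPM of the members in the first and second library. The other microglia of these 6 libraries had 0 to 7.12 CPM, against 107 and 71.5 CPM. Gm10800 was thus lower there in both classes, in libraries that also differ in gene list and barcode set. Within stress_Micro, the median Gm26870 share was 2.13% in cells with up to 4% mitochondrial UMIs and 2.37% in cells above it in brain 24 h replicate 2, and 1.94% and 2.41% at 72 h. It was 2.35% in cells under 1000 UMIs and 1.99% in deeper ones, and 2.37% and 1.17% at 72 h. The excess was thus present on both sides of the mitochondrial and depth limits.

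Gm42418, a predicted RNA at chr17:39846958-39848788 on the plus strand whose counts are often attributed to ribosomal RNA, was at 7776 against 3851 CPM (1.01) and 10253 against 3865 CPM (1.41). At 72 h, 402 of its 1831 UMIs in members were in 1 cell. Over the whole list of predicted genes on repeats or ribosomal RNA, 4 of 9 passing members were higher and none lower in brain 24 h replicate 2, and 3 of 8 and none at 72 h, against 1.32% and 3.50% of all genes higher. The fourth, Gm10801, reached the count minimum through its 69 UMIs in stress_Micro. The median of the list was 0.88 and 0.79 on the log2 scale, and its sum 40653 and 35036 CPM in stress_Micro against 9612 and 7287 CPM in the other microglia.

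The stress gene lists lay close to the pooled other microglia, though not to each of their clusters. Of 25 immediate early genes, which cells transcribe within minutes of a stimulus, none was past 2-fold in either library (of all genes, 1.32% and 3.50% were higher and 1.99% and 4.62% lower), with medians of -0.28 and -0.05. Jun, a subunit of the AP-1 transcription factor, was at 12846 against 14036 CPM and 11507 against 10662 CPM, and its partner Fos at 3113 against 4760 CPM (-0.61) and 3500 against 4571 CPM (-0.38). Summed over the list, stress_Micro had 63762 CPM, between Micro_1 (56612) and Micro_2 (90865), and at 72 h 59623 CPM, again between Micro_1 (42698) and Micro_2 (81036). Heat shock genes, the chaperones that refold damaged proteins, gave none of 15 past 2-fold in the first library and 2 of 14 lower in the second, Hspb1 (44.8 against 182 CPM, -1.94) and Hspe1 (95.2 against 229 CPM, -1.23). Their sum was 8859 and 7638 CPM in stress_Micro but 29239 and 29163 CPM in stress_Myeloid. Against Micro_1 alone, the medians of both lists turned positive in brain 24 h replicate 2 (0.12 each). The immediate early median did so at 72 h as well, as given in the closing section. Hspa1a, the inducible HSP70, stood at 387 against 394 CPM and 151 against 122 CPM.

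The other stress lists had few genes, so that a count of 0 past 2-fold is near the share over all genes (1.32% higher and 1.99% lower, and 3.50% and 4.62% at 72 h). None of the 10 and of the 8 passing genes of the integrated and endoplasmic reticulum stress list was past 2-fold (medians -0.22 and -0.02). Against Micro_1 alone, its median turned positive at 72 h. Its transcription factor Ddit3 was at 127 against 173 CPM and 185 against 170 CPM. None of 9 p53 and cell death genes was past 2-fold (medians -0.15 and -0.08), and Cdkn1a, the cell cycle inhibitor p21, was at 137 against 146 CPM and 241 against 255 CPM. Of the oxidant defence genes only Txn1 (thioredoxin) passed 2-fold, being lower in brain 24 h replicate 2 at 4.55 against 38.2 CPM (-2.76) and not in brain 72 h at 162 against 83.7 CPM (0.97).

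**Figure D4:**
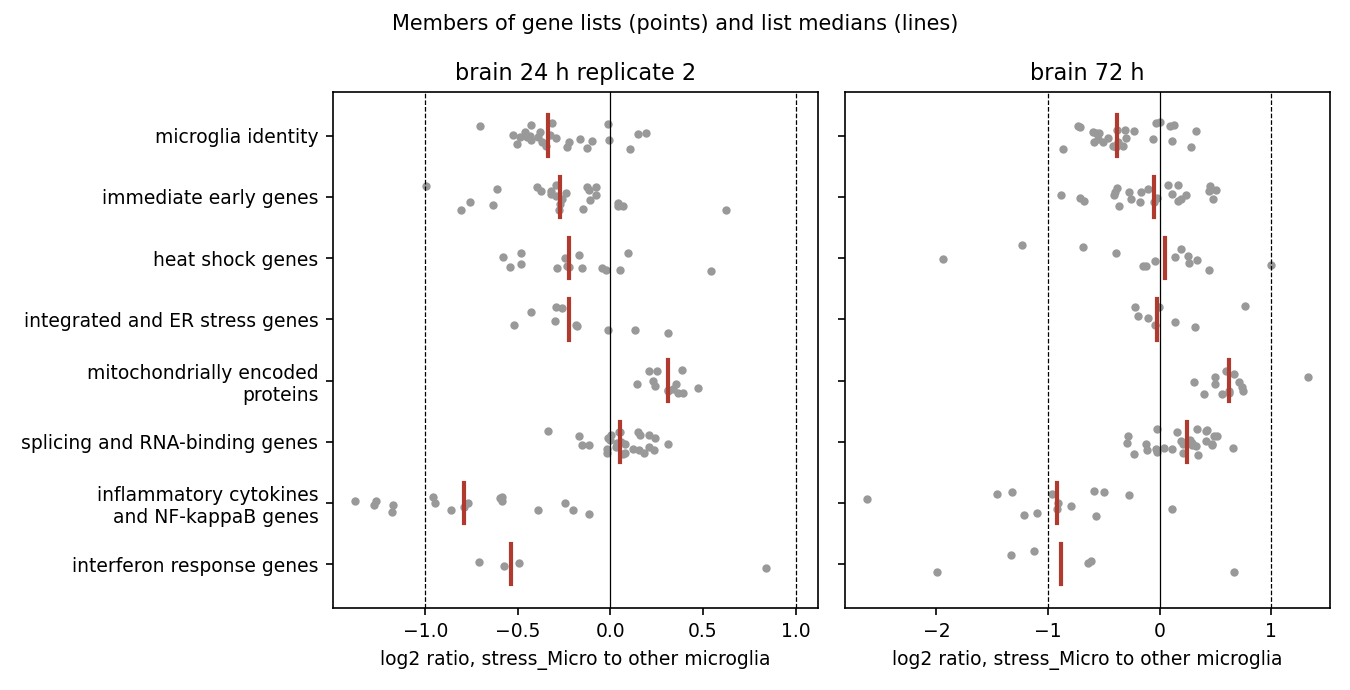
Log2 ratio of stress_Micro over the other microglia for each passing member of the gene lists in brain 24 h replicate 2 and brain 72 h, with the list median as a red line and dashed lines at 2-fold. Immediate early and heat shock genes centre near 0 (medians -0.28 and -0.05, and -0.22 and 0.05), mitochondrially encoded genes lie above it (0.31 and 0.62), and inflammatory genes below it (-0.79 and -0.92).

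RNA classes of the mitochondria and ribosomes differed in opposite directions. All 13 mitochondrially encoded genes had a ratio above 0 in both libraries, with medians of 0.31 and 0.62, and 1 was past 2-fold, mt-Nd6 at 72 h (241 against 96.6 CPM, 1.33). The medians were 0.10 in brain 24 h replicate 2 with cells thinned to equal depth and 0.03 at 72 h without cells above 4% mitochondrial UMIs, the share that these genes themselves make up. The 38 nuclear genes of the respiratory chain gave medians of 0.09 and 0.06 with none past 2-fold. Of 80 cytosolic ribosomal protein genes, 0 were above 0 in brain 24 h replicate 2 and 1 at 72 h, both medians were -0.61, and 1 and 3 were lower past 2-fold, a share no larger than the 1.99% and 4.62% of all genes that were. As a sum these genes had 35199 CPM in stress_Micro and 47369, 45949.8 and 72102 CPM in Micro_1, Micro_2 and Micro_3, and at 72 h 70676 against 118577, 90794 and 126743 CPM. The first of these differences was not seen cell by cell, where the median share was 2.65% in members and 2.71% in other microglia. At 72 h the medians per cell were 4.28% and 8.49%, and among members 3.78% in cells under 1000 UMIs and 9.42% in deeper ones. What part the depth of the cells had in this was not tested.

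Nuclear transcripts were mixed. Malat1, a non-coding RNA retained in the nucleus and the most counted gene of the cluster, took 7.14% of UMIs against 6.59, 6.88 and 5.56% in Micro_1, Micro_2 and Micro_3, and 5.68% against 2.94, 4.88 and 2.67% at 72 h. The median share per cell was 7.42% in members and 7.54% in other microglia in brain 24 h replicate 2, so the difference was not seen cell by cell there, and 6.26% and 3.72% at 72 h. The 14 members of control brain had it at 142329 CPM against 72752, and the 11 of brain 24 h replicate 1 at 90579 against 64319.5 CPM. In dura at 24 h it was at 56053 against 31646 CPM, and in pia at 24 h at 26273 against 39633 CPM. The members of control pia and control dura had 0 UMIs of it, in sums of only 1107 and 528 UMIs. Neat1, the scaffold of paraspeckles, was at 2323 against 2749 CPM and 2262 against 2469 CPM. The 28 splicing and RNA-binding genes had none past 2-fold and medians of 0.05 and 0.24.

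Chemokines and NF-κB targets were low in comparison with the pooled other microglia, of which Micro_3 had the highest levels. Of 17 and 14 passing inflammatory genes, 5 were lower in each library (1.99% and 4.62% of all genes were) and none higher, with medians of -0.79 and -0.92. Cxcl10, an interferon-induced chemokine, was at 93.3 against 229 CPM (-1.28) and 269 against 745 CPM (-1.46), but Micro_1, Micro_2 and Micro_3 had 68.4, 95.9 and 626 CPM, and 203, 265 and 1595 CPM. Against Micro_1 alone Cxcl10 was higher in stress_Micro (0.44 and 0.41) and the list median turned to 0.26 and 0.08. Nfkbia, the inhibitor that NF-κB induces to end its own signal, was at 519 against 1011 CPM (-0.96) and 560 against 1403 CPM (-1.32). Nfkbid, of the same inhibitor family, was at 18.2 against 43.6 CPM (-1.18) and 11.2 against 85.8 CPM (-2.62). The chemokine Ccl4 was at 3973 against 6877 CPM and 5006 against 9745 CPM, and the cytokine Tnf at 294 against 534 CPM and 364 against 691 CPM.

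**Figure D5:**
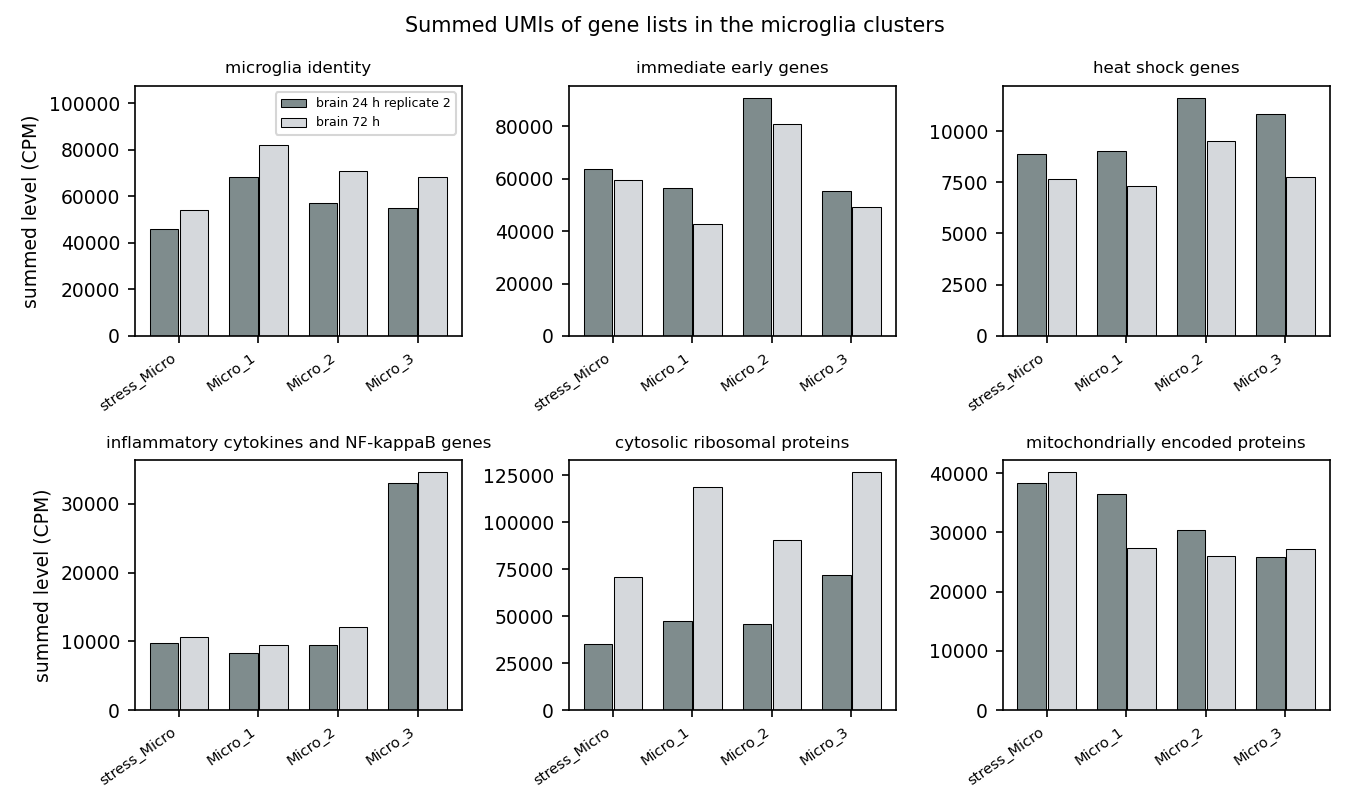
Summed level (CPM) of 6 gene lists in Micro_1, Micro_2, Micro_3 and stress_Micro of brain 24 h replicate 2 and brain 72 h, as bars from 0. In stress_Micro the microglia identity list is lowest (46001 and 54332 CPM) and the mitochondrially encoded genes are highest (38369 and 40154 CPM), while the inflammatory list is highest in Micro_3 (33042 and 34624 CPM).

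The other genes lower in both libraries were mostly thinly counted. Cfl1, the actin-severing protein cofilin, had 95 and 73 UMIs in members and was at 216 against 466 CPM (-1.10) and 409 against 943 CPM (-1.20). Rasgrp3, a Ras activator, was at 54.6 against 117 CPM (-1.08) and 72.8 against 165 CPM (-1.13). Rtcb, the tRNA ligase, was at 43.2 against 98.8 CPM (-1.16) and 61.6 against 132 CPM (-1.04). Caml, Srm (spermidine synthase), Rab3ip, Dcxr, Batf3 and Yeats4 had between 1 and 10 UMIs in the members of either library. Their ratios reached -1.84 for Caml and -2.22 for Srm, both at 72 h, and several of their counting intervals include 0.

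In the lists of activated microglia the genes past 2-fold were so at 72 h, where 3.50% of all genes were higher and 4.62% lower, against 1.32% and 1.99% in brain 24 h replicate 2. Among disease-associated microglia genes none of 12 was past 2-fold in brain 24 h replicate 2 (median -0.31), and at 72 h 3 of 16 were higher and 2 lower (median -0.44). The higher ones at 72 h were the glycoprotein Gpnmb (157 against 15.7 CPM, 28 UMIs in 6 cells, which brought it to the count minimum), galectin 3 or Lgals3 (426 against 54.4 CPM, 2.97) and the fatty acid carrier Fabp5 (325 against 74.2 CPM, 2.14). Of the monocyte and neutrophil markers, 1 of 2 passing genes, S100a8, was higher in the same library. It reached the count minimum there through its UMIs in stress_Micro. The part of monocyte and neutrophil RNA in these values was not tested. The lower ones were lipoprotein lipase or Lpl (33.6 against 117 CPM, -1.69) and Cst7 (39.2 against 89.2 CPM, -1.09). Among interferon response genes, none of 4 and 3 of 6 were lower, Ifit2 (-1.99), Isg15 (-1.33) and Bst2 (-1.13) at 72 h, and none higher. MHC class II genes, which present peptides to T cells, had none of 3 and 2 of 6 higher, H2-Eb1 (129 against 29.9 CPM, 2.12) and the invariant chain Cd74 (342 against 142 CPM, 1.27). H2-Eb1 reached the count minimum through its UMIs in stress_Micro. No phagocytic receptor (12 passing in each library), TGF-β pathway gene (9 in each) or glycolysis gene was past 2-fold in either. Of 3 and 5 cell cycle genes, 1 was lower, Stmn1 at 72 h (22.4 against 146 CPM, -2.53).

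Transcripts of other brain cells were among the remaining genes higher in both libraries. The top of these was Ttr, the thyroxine carrier made by the choroid plexus epithelium, at 4726 against 413 CPM (3.52, 3.40 to 3.64) and 14161 against 293 CPM (5.59). In contrast to Gm26870 it was held by few cells: 10 members (2.09%) had 87.9% of its 2077 UMIs in brain 24 h replicate 2, and 17 (7.98%) had 96.3% of 2529 at 72 h. These cells, with at least 10 Ttr UMIs each, had a median of 4.5 and 7 UMIs over the microglia identity list, against 35 and 34 in the other members, and a median Gm26870 share of 2.75% and 2.43%, against 2.18% and 2.20%. Among other microglia 3 of 1519 and 3 of 814 cells had as many Ttr UMIs. Over the remaining cells the Ttr ratio was 0.74 and 1.07, which leaving out cells by their Ttr UMIs had to lower. A Ttr UMI was found in 38.8% and 43.7% of members, 31.7% and 36.9% of other microglia and 28.8% and 31.8% of lymphoid cells, and in 23.8% and 34.7%, 18.2% and 17.7%, and 9.61% and 16.3% when thinned. Enpp2, autotaxin, which the same epithelium makes, was at 284 against 24.96 CPM (3.50) and 560 against 20.4 CPM (4.76), and at a ratio of 1.00 in brain 24 h replicate 2 without those cells. The choroid plexus list as a whole summed to 5120.1 against 458 CPM and 15023 against 325 CPM, with Ttr and Enpp2 the members of the list of 7 that reached the count minimum, Enpp2 through its UMIs in stress_Micro.

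Neuronal transcripts and some glial ones were at low levels in the members. The neuronal genes that reached the count minimum, 2 in brain 24 h replicate 2 and 1 at 72 h, were higher, against 1.32% and 3.50% of all genes, but Syt1 in the first library and Meg3 at 72 h reached it through their UMIs in stress_Micro. Of the astrocyte genes 1 of 2 and 0 of 1 were higher, and of the oligodendrocyte genes 1 of 5 and 1 of 2. Meg3, a non-coding RNA abundant in neurons, was at 362 against 34.5 CPM (3.38) and 129 against 19.7 CPM (2.71). It was found in 17.7% of members in brain 24 h replicate 2, 3.75% of other microglia and 4.81% of lymphoid cells, and in 12.1%, 2.57% and 1.37% when thinned. At 72 h the shares were 7.51%, 3.44% and 3.13%. Any of the 7 neuronal markers was seen in 26.3% of members, 8.49% of other microglia and 16.9% of lymphoid cells, or thinned 18.0%, 4.81% and 4.81%, and at 72 h in 14.6%, 5.65% and 7.31%, or thinned 9.39%, 2.58% and 3.73%. Complexin 2 (Cplx2), of the synaptic vesicle machinery, was at 178 against 33.5 CPM (2.40) and 123 against 30.6 CPM (2.02). Astrocytic Mt3 (metallothionein 3) was at 187 against 38.2 CPM (2.29) and 207 against 10.9 CPM (4.22). Summed, the neuronal list had 624 against 81.8 CPM and 241 against 32.7 CPM, with Meg3 the most abundant, the astrocyte list 394 against 208 CPM and 252 against 99.4 CPM, and the oligodendrocyte list 428 against 228 CPM and 235 against 110 CPM.

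Markers of blood and vessels followed. Of 4 passing haemoglobin and erythroid genes, 1 was higher in brain 24 h replicate 2 and 4 at 72 h (1.32% and 3.50% of all genes were), with Hba-a2 at 246 against 107 CPM (1.21) and 174 against 68.7 CPM (1.35) and Hbb-bs, the most abundant, at 685 against 414 CPM and 610 against 251 CPM. The endothelial genes Cldn5, of tight junctions, and Flt1, a VEGF receptor, were higher in brain 24 h replicate 2 (1.35 and 2.15), and none passed the count minimum at 72 h. T cell markers summed to 31.9 and 16.8 CPM in members against 1614 and 2292 CPM in lymphoid cells, and border macrophage markers to 121 and 151 CPM against 12.7 and 27.9 CPM in other microglia, with no gene passing. Monocyte and neutrophil markers summed to 225 against 134 CPM and 258 against 116 CPM. S100a8, a neutrophil calcium-binding protein, was higher at 72 h (84.0 against 23.8 CPM, 1.84) and reached the count minimum through its 15 UMIs in members. B cell markers summed to 148 against 179 CPM and 174 against 287 CPM, with Cd79b lower at 72 h, and NK cell markers to 11.4 against 8.50 CPM and 11.2 against 5.44 CPM. What part RNA of other cells had in the genes higher in stress_Micro was not tested.

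Other genes higher in both libraries included some with high levels in lymphoid cells. Ahnak, a giant scaffold protein, had the highest ratio among genes with at least 50 UMIs in brain 24 h replicate 2, which it reached with 41 UMIs in members and 9 in other microglia, at 93.3 against 4.78 CPM (4.23) and 202 against 20.4 CPM (3.30), with 646 and 639 CPM in lymphoid cells. It was counted in 25 and 17 members. Vim (vimentin, an intermediate filament) was at 52.3 against 20.7 CPM (1.35) and 213 against 52.4 CPM (2.03). Adgre5, the leukocyte adhesion receptor CD97, was at 93.3 against 38.2 CPM (1.29) and 168 against 61.3 CPM (1.47), with 532 and 500.1 CPM in lymphoid cells. Ahcyl2 was at 68.3 against 34.0 CPM (1.02) and 72.8 against 32.0 CPM (1.23).

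The extremes of each library included further genes. In brain 24 h replicate 2 the synaptic calcium sensor Syt1 was at 86.5 against 6.37 CPM (3.72), Ctla2a at 105 against 8.50 CPM (3.59, with 734 CPM in lymphoid cells), and the sodium pump subunit Atp1b1 at 105 against 9.03 CPM (3.51). The lowest there, after Txn1, were Bank1 (-2.13), Slc35a4 (-2.08), C1d (-2.01) and Mrpl42 (-1.97). Among genes with at least 50 UMIs at 72 h, the highest were Ttr, Enpp2, Mt3, Gm26870 and Gpnmb (3.32). The lowest at 72 h had 0 UMIs in the members, which allows up to 16.8 CPM, so that Rala, a Ras-like GTPase, was at least 3.00-fold lower, Polg, the mitochondrial DNA polymerase, and the mast cell protease Prss34 at least 2.31-fold, Htra3 at least 2.23-fold and Plxna4os1 at least 2.15-fold. The genes lower in the cluster had shorter gene bodies than the others. Their median span was 13.1 kb in brain 24 h replicate 2 and 16.3 kb at 72 h, against 26.4 and 24.9 kb for all genes compared and 38.03 and 28.2 kb for the higher ones.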

How the data were processed

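Leukocytes were sequenced as single cells, in 8 libraries, by the 3′ method of 10x Genomics. The counts deposited by the authors are UMIs for each gene in each barcode, made with Cell Ranger 6.0 on mm10 according to the submitters' processing notes, and include barcodes that the annotation leaves out. For the annotation the authors had removed cells by gene number and mitochondrial share, at limits set for each sample. They had also removed doublets by scDblFinder, and had clustered the rest in Seurat after Harmony integration. No further doublet call was made here. The authors' deposited UMAP scores were not used. Control pia carries the word brain in its title and pia in all other labels, and was used as pia. Positions came from GENCODE M21 on GRCm38, the assembly also called mm10, in which 31011 of 31053 identifiers (99.9%) of the shorter gene list were found. The authors sorted cells after enzymatic digestion and a density gradient, with the choroid plexuses removed from the brain.

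UMIs were summed over the cells of a class within a library, scaled to 1000000, and compared as log2 ratios with 0.5 UMIs added, with exact conditional 95% binomial intervals. Genes needed 50 UMIs in both classes together and were called past 2-fold. A gene that is high in stress_Micro can reach the minimum through that class, so counts of list members refer to those that reached it. The cluster was drawn from the same genes, so no test was made. Shares of cells have exact Clopper-Pearson 95% intervals. Depth was 6591898 to 20754181 UMIs per library. The libraries are the samples, and cells were not treated as replicates.

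The genes named were the 12 highest and 12 lowest by the ratio nearer to 1 among those past 2-fold in the same direction in both libraries, the 5 highest and 5 lowest of each library, members of the lists as examples, and Cx3cr1 and Tmem119. Some genes that these rules name are not reported here. Ahcyl2, which is among the 15 genes higher in both but not among the 12 highest, and the genes in the closing section were named after their values were seen. The cluster, the lists and the rules were chosen with earlier results of these data known. Alternatives were count minimums of 20 and 200 UMIs, 2 other scalings, cells thinned to 500 UMIs, means of values per cell, and each other microglia cluster alone. Leaving out cells with at least 10 Ttr UMIs or over 4% mitochondrial UMIs, shares among cells up to 4%, and the list medians were added after seeing the data. The ratio step was checked on simulated data. Sums and intervals were computed in Python 3.11.15 with scipy 1.17.1, tables were handled with pandas 2.3.3 and numpy 2.4.6, and plots were drawn with matplotlib 3.10.9.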

Additional observations from a re-analysis of the deposited data

Results flagged for a closer look

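In total 4 genes lay past 2-fold in opposite directions in brain 24 h replicate 2 and brain 72 h, and the difference was not tested. Cstb (cystatin B, an inhibitor of lysosomal proteases) had a log2 ratio of -1.14 at 43.2 against 97.7 CPM in the first library and of 1.01 at 286 against 143 CPM in the second. Pdcd6 went from -1.24 to 1.06, Thap3 from -1.54 to 1.02 and Tsc22d1 from 1.08 to -1.32, each with 18 or fewer UMIs in the members of either library.

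Signal outside the annotated cells was present for Ttr. Barcodes without a cluster had it at 19171 CPM in control brain, 62416 CPM in brain 24 h replicate 2 and 41239.9 CPM in brain 72 h, above its level of 3.56 to 594 CPM in those of control dura and control pia. It was at 2058 CPM in brain 24 h replicate 1, the other library of that condition, and at 401 CPM in dura at 24 h. At least 10 Ttr UMIs were found in 241 of 880 and 417 of 1347 such barcodes of brain 24 h replicate 2 and brain 72 h.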

How the results depend on the processing

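The counts of genes past 2-fold depended on the count minimum, depth and reference class, while Gm26870 and Gm10800 did not leave the list of genes higher in both libraries under any of the 12 settings. The log2 ratio of Gm26870 ran from 2.89 to 3.64 in brain 24 h replicate 2 and from 3.33 to 4.20 at 72 h, that of Gm10800 from 2.96 to 3.32 and from 2.53 to 4.45, and that of Ttr from 0.74 to 4.10 and from 1.07 to 6.16. Of the other genes higher in both, Ttr was so in 11 settings, Enpp2 and Gm42418 in 10, and the rest in 5 to 8. Genes lower in both were so in 3 to 8. In the order higher in brain 24 h replicate 2, at 72 h and in both, then lower in the same order, the counts were 377, 588, 55, 310, 548 and 36 at a minimum of 20 UMIs, and 7, 10, 4, 14, 35 and 4 at 200 UMIs. They were 32, 31, 7, 34, 49 and 1 after thinning, 28, 38, 5, 26, 88 and 4 against Micro_1 alone, and 51, 51, 9, 25, 45 and 2 against Micro_2 alone. Against Micro_3 alone 88 were higher at 72 h, 215 lower in brain 24 h replicate 2 and 55 lower in both, and means per cell gave 5 lower in both. Without cells of at least 10 Ttr UMIs, 11 of the 15 higher and 10 of the 11 lower genes kept their call, and without cells over 4% mitochondrial UMIs 8 and 6 did.

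List medians turned sign against Micro_1 alone for immediate early genes (0.12) and heat shock genes (0.12) in brain 24 h replicate 2 and for inflammatory genes in both libraries (0.26 and 0.0814), and so did Cxcl10 against Micro_1 (0.44 and 0.41) and, at 72 h, against Micro_2 (0.0304). In brain 24 h replicate 2, microglia identity moved to -0.58 against Micro_1 and -0.0338 against Micro_3, and inflammatory genes to -0.0582 against Micro_2 and -1.70 against Micro_3. The mitochondrially encoded genes moved to 0.0991 when thinned, 0.102 per cell, 0.0648 against Micro_1 and 0.60 against Micro_3, and at 72 h to 0.0303 without cells over 4%. Ribosomal protein genes moved to -0.059 when thinned, -0.10 per cell, -0.41 against Micro_1 and against Micro_2, -1.05 against Micro_3 and -0.86 without cells over 4%, and at 72 h to -0.33 against Micro_2. Splicing genes moved to -0.10 per cell and 0.37 against Micro_3, and at 72 h to 0.51 against Micro_3. Immediate early genes (from -0.05 to 0.48) and endoplasmic reticulum stress genes (from -0.02 to 0.44) also turned sign against Micro_1 at 72 h. The cause was not tested. The median mitochondrial share per cell was 3.48% in brain 24 h replicate 2, where the share of the sum was 3.84%.

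The stress_Micro share in brain 24 h replicate 2 and at 72 h was 24.0% and 20.7% of the 4 microglia clusters, 11.0% and 2.88% of all barcodes, 7.04% and 0.706% of annotated cells with at least 1000 UMIs, and 11.3% and 1.95% of those up to 4% mitochondrial UMIs. At 1000 UMIs it was 0.0248% in control brain and 0.0237% in brain 24 h replicate 1. The mean at 24 h was 13.8% without replicate 1 and 0.240% without replicate 2. Of the remaining values, 479 of named genes, 151 of lists and 32 of gene counts stayed within their limits, and 58 of named genes moved outside them. A change of sign in a named gene was recorded only where its reported ratio was past 2-fold. No paired analysis was possible because no group but brain at 24 h has more than 1 library, so the groups share fewer than 2 replicate numbers, and the results come from no test. Depth limits single genes: with 178589 UMIs in the members at 72 h, a gene at 16.8 CPM gives 3 counts. No more than 2 libraries held enough members, and their share of cells, gene list and barcode set vary together.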

Other observations

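Some genes outside the lists had a counting interval of the ratio wholly past 2-fold in at least 1 library; they were chosen after their values were seen. In brain 24 h replicate 2, Ptgds (prostaglandin D synthase, made by meningeal and oligodendroglial cells) was at 319 against 35.6 CPM (3.16), with 140 UMIs in 66 members, and at 72 h at 140.0 against 13.6 CPM (3.36) with 25 UMIs, under the count minimum. Sparcl1, an astrocyte-secreted matrix protein, was at 88.7 against 13.3 CPM (2.73), and the glutamate receptor subunit Gria2 at 88.7 against 13.3 CPM (2.73). The adhesion molecule Vcam1 was at 86.5 against 8.50 CPM (3.32), but 29 of its 38 UMIs were in 1 cell.

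At 72 h, S100a6 was at 252 against 30.6 CPM (3.04; 45 UMIs in 18 members), Chil3, a chitinase-like protein, at 134 against 17.7 CPM (2.93; 24 UMIs in 9 members), Tgfbi at 224 against 68.1 CPM (1.73; 40 UMIs in 12 members) and Thbs1 at 140.0 against 24.5 CPM (2.52; 25 UMIs in 13 members). In brain 24 h replicate 2, Tgfbi was at 79.6 against 61.1 CPM (0.40). These UMIs lay in at most 18 of the 213 members for each of the 4 genes. Monocyte and neutrophil markers summed to 258 against 116 CPM in the same library, and their part in these values was not tested.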
